A study of Mus musculus with 20 samples.

Results

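Cxcl5, Cxcl10, Ccl2, Ccl3, Ccl4, Ccr2, Cxcl12, Cxcl14 and Cxcl16 are 8 chemokine genes and 1 chemokine receptor gene, chosen by their symbols. All 9 were listed, among 20375 genes, in each of 2 comparison tables of medial prefrontal cortex RNA from C57BL/6 mice. The study injected either CDS, an agent that the labels do not spell out, or phosphate-buffered saline (PBS) into that region, and its title speaks of microglia depletion. The 20 samples form 4 groups of 5, namely PBS and CDS at postnatal day 47, which was 5 days after injection (5 dpi), and PBS and CDS at postnatal day 84, at 12 weeks of age and 6 weeks after injection. Nothing in the labels says that the samples of a group are separate animals, so p-values measure the spread between samples.

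Chemokines are small proteins, most of them secreted, that steer the movement of cells carrying matching receptors. They are named by the spacing of their first cysteines, next to each other in CC chemokines and 1 residue apart in CXC chemokines. Their receptors are coupled to G proteins, apart from atypical receptors, which bind and remove ligands. In brain tissue, glia, vessel cells, meningeal cells and some neurons make chemokines, and microglia and entering leukocytes carry many of the receptors.

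For each gene the deposited tables give a q-value and the log2 ratio of CDS to PBS, and no value per sample. Levels, depth and the overlap of groups between samples are therefore unknown, and the labelled tissue cannot be checked by its marker levels. In whole tissue, fewer cells of a type and less RNA per cell cannot be told apart. A gene was counted as past the threshold where the q-value was under 0.05, and the error given is the standard error (SE) implied by the fold change and the p-value recovered from q.

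At 5 dpi the neutrophil-attracting chemokine Cxcl5 and the monocyte receptor Ccr2 rose and the interferon-induced chemokine Cxcl10 fell. The other 6 genes did not pass the threshold. At 12 weeks none of the 9 passed. For Cxcl5 and Cxcl10 the change in log2 fold change between the times was itself past the threshold. The errors at 12 weeks are hidden, and for these genes the test took them at or near the smallest that q allows. The call for Cxcl10 was lost where they were taken as 1.5 times larger. The count of 3 of 9 at 5 dpi stands beside 5.92% of all genes, 2.75% higher and 3.18% lower. The median log2 fold change of the 9 genes in the authors' deposited table was 0.09, against -0.02 over all genes.

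**Figure D1:**
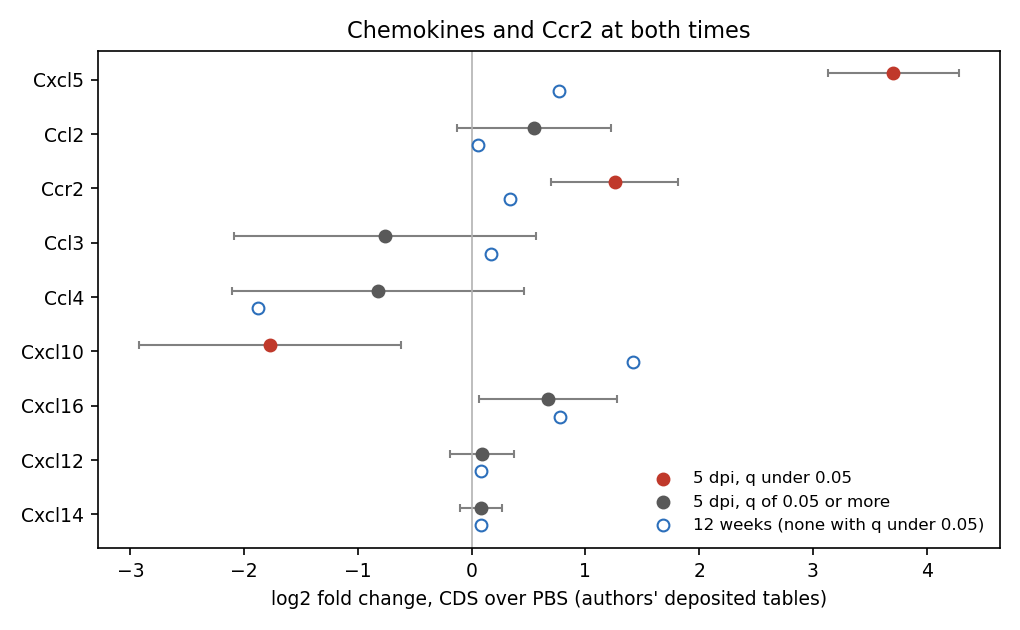
Log2 fold change of CDS over PBS for the 9 genes, with filled points for 5 dpi (bars, 95% intervals from the implied SE) and open points for 12 weeks, where no error is known for any of them. Cxcl5 and Ccr2 lie above 0 and Cxcl10 below 0 at 5 dpi in red, and Cxcl10 lies on the other side of 0 at 12 weeks.

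Cxcl5 (ENSMUSG00000029371) encodes a CXC chemokine that acts on neutrophils through the receptor Cxcr2. The gene lies on chromosome 5, 90759360 to 90761624, plus strand (GRCm38, GENCODE M21). In the authors' deposited table its log2 fold change at 5 dpi was 3.71 (implied SE 0.29, q = 1.64e-33). This is 13.1-fold higher in CDS, with a 95% interval of 8.78 to 19.5. It was the second highest log2 fold change of all 20375 genes in the authors' deposited table and the 12th smallest q. At 12 weeks the authors' deposited table gave 0.77, which was 1.70-fold and not past the threshold (q = 0.999997).

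Of the CXC ligands listed from the same chromosome, Cxcl10 fell at 5 dpi, and Pf4 and Cxcl1, which lie nearer to Cxcl5, did not pass. Pf4, platelet factor 4, begins 13075 bases from Cxcl5 and stood at 0.57 (implied SE 0.31, q = 0.303) in the authors' deposited table. Cxcl1, another ligand of Cxcr2, stood at 0.52 (implied SE 0.56, q = 0.668) in the authors' deposited table. The tables do not list Cxcr2, so the receptor of Cxcl5 has no value.

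Of 12 neutrophil markers 6 were listed, 5 of them below 0 and 1 above, with 1 past the threshold each way. The authors' deposited table puts their median at -1.28. Mmp9, a gelatinase also made by other cells, rose by 1.29 and the cytokine receptor Csf3r fell by 1.68 in the authors' deposited table. The part of neutrophils in either change was not tested. The granule genes S100a8, S100a9, Ltf and Ngp stood at -0.66, -0.89, -1.79 and -2.16 in the authors' deposited table, and none passed, the smallest q being 0.228. Their implied SEs were large, at 0.79, 1.04, 0.96 and 1.04. Ly6g was not listed. Gfap, a filament gene of astrocytes, rose by 1.497 (q = 0.000134) in the authors' deposited table, and 2 of 10 astrocyte markers rose in all. The part of any cell type in the rise of Cxcl5 was not tested.

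**Figure D2:**
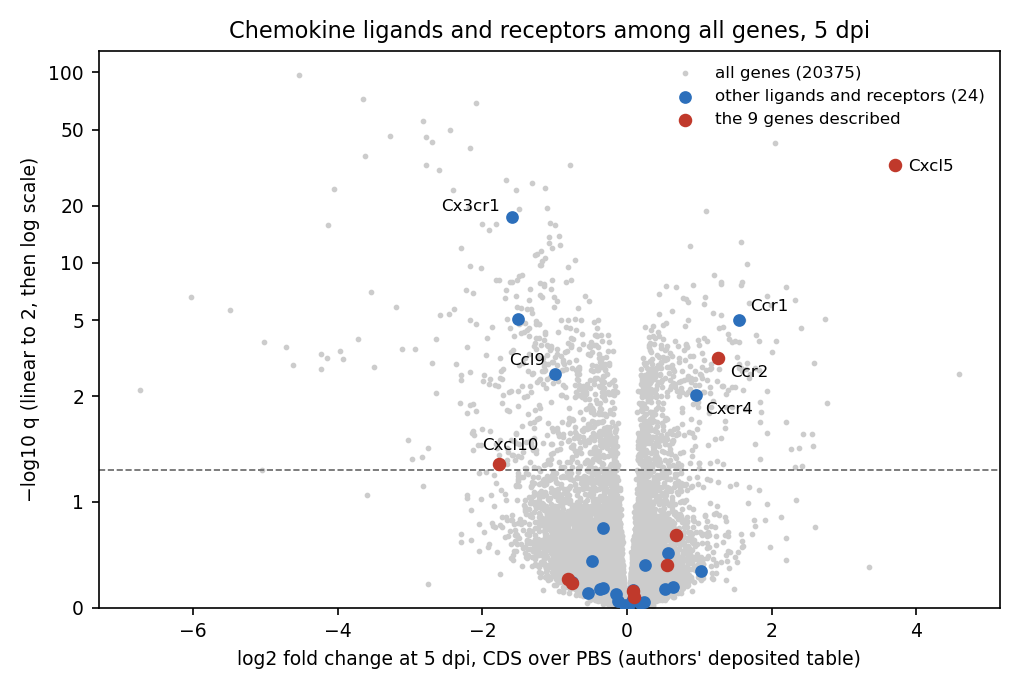
Log2 fold change at 5 dpi (x axis) and −log10 of the authors' q-value (y axis, linear to 2 and logarithmic above) for all genes in grey, the 9 genes in red and the 24 other listed chemokine ligands and receptors in blue; the dashed line marks q of 0.05. Cxcl5 stands far to the right, while Cxcl10 lies just above the line.

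Ccr2 (ENSMUSG00000049103) is the receptor that draws monocytes out of the blood toward Ccl2 and related ligands. It lies on chromosome 9, 124101950 to 124113557, plus strand. In the authors' deposited table its log2 fold change at 5 dpi was 1.26 (implied SE 0.28, q = 0.000689). This is 2.39-fold higher in CDS, with a 95% interval of 1.63 to 3.52. At 12 weeks the authors' deposited table gave 0.33 (q = 0.999997), and the change between the times did not pass (difference -0.92, SE 0.40, adjusted p = 0.507).

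Ccl2 (ENSMUSG00000035385), the main ligand of Ccr2, lies on chromosome 11, 82035571 to 82037453, plus strand. It stood at 0.55 at 5 dpi (implied SE 0.34, q = 0.398) in the authors' deposited table and at 0.05 at 12 weeks. The 95% interval at 5 dpi ran from -0.13 to 1.22, so a rise of up to 2.33-fold lies within it. Ccl7, Ccl12 and Ccl8, related chemokines beside it on the chromosome, stood at 0.23, -0.37 and -0.76 in the authors' deposited table at 5 dpi, none past the threshold.

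Other markers of monocytes went both ways. Of 11 marker genes of monocytes and macrophages besides Ccr2, 6 were listed, 3 above and 3 below 0; 2 rose and 1 fell. Their median in the authors' deposited table was 0.11. Itgal, an integrin of leukocytes, rose by 1.58 and the lysozyme gene Lyz2 by 1.15, while Vcan, which oligodendrocyte precursors express too, fell by 1.13 in the authors' deposited table. Fn1 and Ms4a4c did not pass, at -0.27 and -0.78 in the authors' deposited table. Ly6c2, Plac8 and Chil3 were not listed. The 12-week values in the authors' deposited table were -0.44 for Itgal (q = 0.999997) and 1.33 for Lyz2 (q = 0.169). The part of monocytes in the rise of Ccr2 was not tested.

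Ccr1, a receptor of Ccl3 on monocytes, neutrophils and other leukocytes, begins 139826 bases from Ccr2 and rose by 1.55 (implied SE 0.29, q = 9.23e-06) in the authors' deposited table. Ccr9, a receptor of gut-homing lymphocytes, begins 423511 bases away and stood at -0.33 (implied SE 0.34, q = 0.654) in the authors' deposited table. Part of the Ccr2 sequence is shared: of 6758 different runs of 50 bases in its annotated transcripts, 129 were also in transcripts of other genes. How reads from such stretches were counted is not given in the sources used here.

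**Figure D3:**
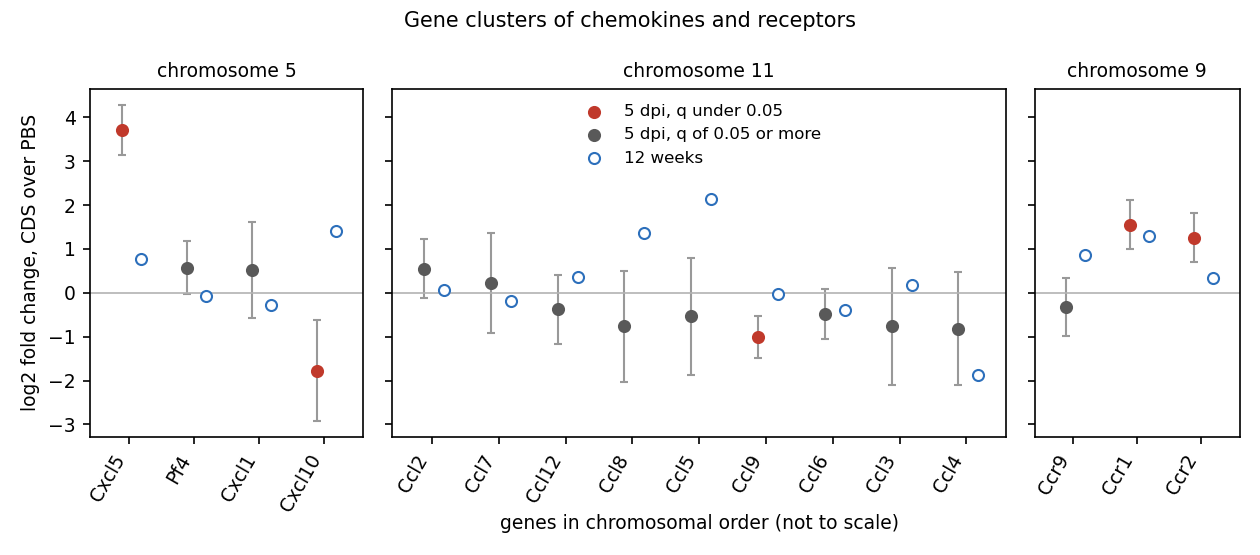
Log2 fold change of CDS over PBS for chemokine and receptor genes reported here near Cxcl5, Cxcl10, Ccl2, Ccl3, Ccl4 or Ccr2, in order along chromosomes 5, 11 and 9, with filled points and 95% intervals for 5 dpi and open points for 12 weeks. On chromosome 9, Ccr1 and Ccr2 lie above 0 at 5 dpi with intervals clear of it; on chromosome 11, Ccl9 is the gene in red.

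Cxcl10 (ENSMUSG00000034855) encodes a CXC chemokine that is strongly induced by interferons and draws T cells and natural killer cells through the receptor Cxcr3. Interferon signals act on it through the interferon-stimulated response element, and NF-kB, a factor of inflammatory signalling, also acts on its promoter. It lies on chromosome 5, 92346638 to 92348889, minus strand. RefSeq promoter windows on GRCm38.p6, of 250 bases before and 50 after the annotated start, were found for 5 of the 9 genes (Cxcl10, Ccl3, Ccr2, Cxcl12 and Cxcl14). Cxcl5, Ccl2, Ccl4 and Cxcl16 had no entry. Stretches of 3 of these windows are shown because they hold matches to motifs of the inflammatory factors above, written 5′ to 3′ on the strand of the gene, with the matching letters in capitals.

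Cxcl10, chr5:92348945-92349114, minus strand: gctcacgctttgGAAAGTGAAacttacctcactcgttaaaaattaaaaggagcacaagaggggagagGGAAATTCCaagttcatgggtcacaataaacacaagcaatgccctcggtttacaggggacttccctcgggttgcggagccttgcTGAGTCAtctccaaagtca

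Ccl3, chr11:83649397-83649429, minus strand: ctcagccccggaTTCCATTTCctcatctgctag

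Cxcl14, chr13:56296703-56296735, minus strand: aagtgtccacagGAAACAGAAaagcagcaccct

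The letters searched, on either strand, were GAAANNGAA for the core of the interferon element, GGANTTTCC for an NF-kB half-consensus and TGACTCA for AP-1, another stress-responsive factor. The promoter of Cxcl10 held all 3, with the interferon core at 213 to 205 bases before the start, the NF-kB letters at 158 to 150 and the AP-1 letters at 74 to 68. Ccr2, Ccl3 and Cxcl14 held the interferon letters alone, and Cxcl12 held none of the 3. Those of Ccr2, at 86 to 78 bases before its RefSeq start, lie within the first exon of a longer GENCODE transcript and are not printed. Over 32851 promoter windows of the same length, 8.56% held the interferon letters, 1.25% the NF-kB letters and 5.20% the AP-1 letters. Such a match describes the letters and shows no binding. Other spellings of these motifs were not searched, so letters in lower case may hold them.

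**Figure D4:**
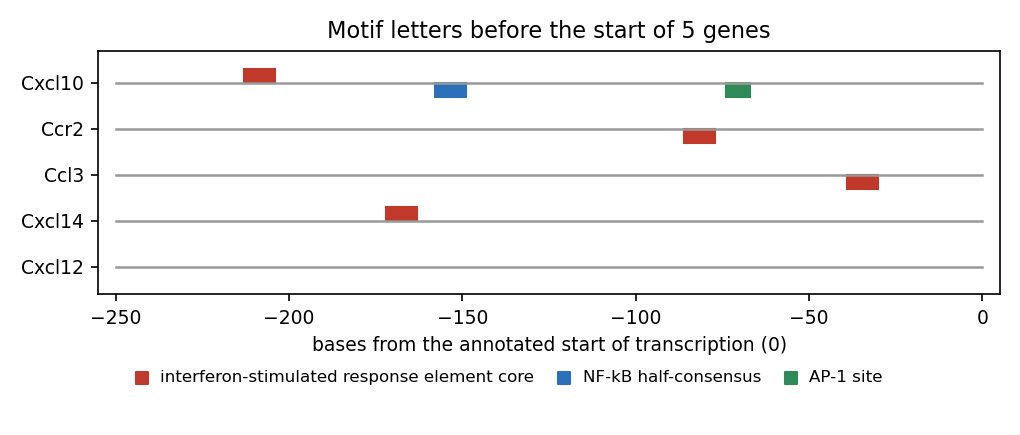
Places of the motif letters in the 250 bases before the annotated start of 5 genes, with a box above the line for a match on the strand of the gene and below it for the opposite strand (x axis, bases from the start). Cxcl10 holds all 3 kinds of motif, and Cxcl12 none.

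In the authors' deposited table the log2 fold change of Cxcl10 at 5 dpi was -1.77 (implied SE 0.59, q = 0.0442). This is 3.42-fold lower in CDS, with a 95% interval of 1.54 to 7.58, and the fold is loosely known. At this error a change of 1.74 on the log2 scale was the smallest that would have passed. The call was lost at a q under 0.01. At 12 weeks the authors' deposited table gave 1.42, which was 2.67-fold higher in CDS and the 27th highest of all genes, but it did not pass (q = 0.999997). The implied SE of Cxcl10 was larger than that of 94.9% of all genes at 5 dpi, and at least 0.57 at 12 weeks.

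Exons of Cxcl10 overlap those of Art3, a gene of the opposite strand. Art3 rose by 0.66 at 5 dpi in the authors' deposited table (q = 0.000123), the opposite direction to Cxcl10. The libraries mark strand, but strand handling in the counting is not given in the sources used here. Of 2343 runs of 50 bases in the transcripts of Cxcl10, 84 were shared with Art3.

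Part of the interferon pathway fell beside Cxcl10. Of 24 of its genes, 22 were listed; 11 fell and none rose at 5 dpi. The authors' deposited table puts their median at -0.44. The induced genes Ifit1, Usp18 and Ifit3 fell by 1.41, 1.62 and 0.97, and Irf7, a transcription factor of the pathway, fell by 1.38 in the authors' deposited table, where their largest q was 0.000292. At 12 weeks these 4 genes lay between -0.08 and 0.07 in the authors' deposited table, the pathway's median was 0.00081, and none passed. Irf1, a transcription factor through which interferons act, did not pass at 5 dpi, at -0.19 (q = 0.373) in the authors' deposited table. The tables do not list Cxcr3, nor Cxcl9 and Cxcl11, its other ligands.

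Ccl3 and Ccl4 encode closely related CC chemokines, made by activated microglia and macrophages, that draw leukocytes; Ccr1 is a receptor of Ccl3. They lie side by side on chromosome 11, Ccl3 (ENSMUSG00000000982) at 83647844 to 83649355 on the minus strand and Ccl4 (ENSMUSG00000018930) at 83662584 to 83664683 on the plus strand. At 5 dpi Ccl3 stood at -0.76 (implied SE 0.68, q = 0.586) in the authors' deposited table. Ccl4 stood at -0.82 (implied SE 0.66, q = 0.533) in the authors' deposited table. Their errors were larger than those of 97.7% and 97.2% of all genes, and only changes of at least 4.04-fold and 3.86-fold would have passed.

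At 12 weeks the values of these neighbours differed, and the gap between the genes was not tested. Ccl3 stood at 0.17 and Ccl4 at -1.88 in the authors' deposited table, the latter the 8th lowest of all genes. Neither passed (q = 0.999997), and the implied SE of Ccl4 was then at least 0.76. The change between the times did not pass for Ccl3 (0.94, SE 0.96, adjusted p = 0.902) or for Ccl4 (-1.05, SE 1.003, adjusted p = 0.895). No 50-base run of either was shared with another gene.

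Among the other CC ligands of that cluster, Ccl9 fell by 0.997 at 5 dpi (implied SE 0.24, q = 0.00237) in the authors' deposited table. Ccl9 is a ligand of Ccr1. Ccl6 stood at -0.49 and Ccl5 at -0.54 in the authors' deposited table, with implied SEs of 0.29 and 0.68, and neither passed. At 12 weeks Ccl5 was the highest of the family, at 2.14 in the authors' deposited table, without passing the threshold (q = 0.999997).

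Cxcl12 (ENSMUSG00000061353) is made by vessel, meningeal and some neural cells, and guides migrating neurons and precursors through Cxcr4; the atypical receptor Ackr3 takes it up. It lies on chromosome 6, 117168535 to 117181367, plus strand. It stood at 0.09 at 5 dpi (implied SE 0.14, q = 0.798) in the authors' deposited table and at 0.08 at 12 weeks. The 95% interval at 5 dpi ran from -0.19 to 0.37, so a rise above 1.29-fold and a fall beyond 1.14-fold lie outside it. Its receptor Cxcr4, which microglia and leukocytes carry too, rose by 0.96 (implied SE 0.26, q = 0.00939) in the authors' deposited table, and Ackr3 stood at 0.25 (q = 0.392).

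Cxcl14 (ENSMUSG00000021508) encodes a CXC chemokine found in brain in interneurons, among other cells. It lies on chromosome 13, 56288643 to 56296551, minus strand. It had the smallest implied SE of the 9 and stood at 0.08 at 5 dpi (implied SE 0.095, q = 0.692) in the authors' deposited table and at 0.08 at 12 weeks. The 95% interval at 5 dpi ran from -0.10 to 0.27, which is 1.07-fold lower to 1.205-fold higher. Of 11 interneuron markers 1 rose and 1 fell at 5 dpi, and the authors' deposited table puts their median at 0.0029.

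Cxcl16 (ENSMUSG00000018920) encodes a transmembrane chemokine and scavenger receptor that acts through Cxcr6, a receptor of T cells, and is shed from the cell surface. It lies on chromosome 11, 70453983 to 70459984, minus strand, apart from the CC cluster. It stood at 0.67 at 5 dpi (implied SE 0.31, q = 0.204, recovered unadjusted p = 0.0307) in the authors' deposited table and at 0.78 at 12 weeks. The values of the 2 times lay close together (difference 0.10, SE 0.44, adjusted p = 0.982), and neither passed. Its exons overlap those of Zmynd15 on the opposite strand, which stood at 0.31 (q = 0.692) in the authors' deposited table. Of the 50-base runs of Cxcl16, 16.9% were shared with that gene. The tables do not list Cxcr6.

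At 12 weeks 0 of the 9 genes passed the threshold by the authors' q-values, beside 0.191% of all genes, 0.0933% higher and 0.0982% lower. All 9 are among 20103 genes that shared the highest q, 0.999997. Such a gene had an unadjusted p of at least 0.0134, and how many of the 9 had a p under 0.05 cannot be read from the table. Of the 9, 8 lay above 0 and Ccl4 below, and the median was 0.17 in the authors' deposited table, against -0.0022 over all genes.

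The change between the times was tested as a z over the implied SEs, with Benjamini-Hochberg adjustment over all genes. The SE at 12 weeks is hidden for these genes, and that of 5 dpi, or the smallest that the shared q allows, stood in for it. The log2 fold change of Cxcl5 was lower at 12 weeks than at 5 dpi by this measure (difference -2.94, SE 0.43, 95% interval -3.78 to -2.10, adjusted p = 9.15e-09). That of Cxcl10 was higher (difference 3.19, SE 0.83, 95% interval 1.56 to 4.81, adjusted p = 0.0347). Thus 2 of the 9 passed, beside 0.432% of all genes. The SE used at 12 weeks for Cxcl5 was 0.311, the smallest that the shared q allows. For Cxcl10 it was 0.586, where the smallest allowed was 0.572. Larger hidden errors would widen these intervals and raise the p-values. The call for Cxcl10 was lost where the hidden errors were taken as 1.5 times larger (adjusted p = 0.595).

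The wider family was taken from lists of 39 ligands and 24 receptors, of which 21 and 12 were listed. Of these 33 genes, 4 rose and 4 fell at 5 dpi, beside 2.75% of all genes higher and 3.18% lower. Their median by the authors' deposited table was 0.07. Outside the 9 genes, Ccr1 and Cxcr4 were among those that rose, and Cx3cr1 and Ccl9 among those that fell. Cx3cr1, the microglial receptor of the neuronal chemokine Cx3cl1, fell by 1.59 (implied SE 0.17, q = 3.69e-18) in the authors' deposited table, while Cx3cl1 stood at -0.03 (q = 0.944). None of the 33 passed at 12 weeks, beside 0.191% of all genes. Ccr1 came nearest, at 1.30 in the authors' deposited table (q = 0.0996).

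At 5 dpi no ligand among the 9 genes passed together with a listed receptor named above for it. That was fixed beforehand, because the receptors named for the ligands that passed, Cxcl5 and Cxcl10, were not listed. Ccr2 rose and Ccl2 did not pass, Ccr1 rose while Ccl3 did not pass, and Cxcr4 rose while Cxcl12 did not pass. For Cxcl5, Cxcl10 and Cxcl16 the matching receptor was not listed. Of the 4 listed atypical receptors, Ackr1, Ackr2, Ackr3 and Ccrl2, none passed at 5 dpi, and they lay between -0.16 and 0.25 in the authors' deposited table.

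Genes downstream of the receptors were lower or did not pass. Of 22 listed chemokine signalling genes 5 fell and none rose at 5 dpi, and their median by the authors' deposited table was -0.11. The kinase subunit Pik3cg, the kinase Lyn and the exchange factors Vav1 and Dock2 fell by 0.97, 0.82, 0.92 and 0.77 in the authors' deposited table, where their largest q was 0.000196. Of 15 listed NF-kB pathway and cytokine genes, the cytokine Il1a fell by 2.17 and the receptor Tnfrsf1b by 0.70 in the authors' deposited table, and none rose. Of 13 listed adhesion genes used by leukocytes, 4 fell and Itgal rose; Selplg, Itgam and Jam2 fell by 2.18, 1.92 and 0.29 in the authors' deposited table.

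Markers of resting microglia moved with these falls. All 12 fell at 5 dpi, from -2.82 for Slc2a5 to -1.17 for Olfml3 in the authors' deposited table, around a median of -1.54. At 12 weeks 1 of the 12 was lower, and the median was -0.38 in the authors' deposited table. Border-associated macrophages live in the linings and vessel spaces of the brain. Of their 11 markers 3 fell and 1 rose at 5 dpi, and the range was -5.49 for Cd209f to 1.06 for Cbr2 in the authors' deposited table. The median of these 11 at 5 dpi was 0.31 in the authors' deposited table, with 6 above 0 and 5 below. At 12 weeks 3 of the 11 were lower. Of 10 fibroblast and meninges markers 4 rose and 1 fell, and none of 10 endothelial markers passed. The authors' deposited table puts these medians at 0.47 and -0.02. Of 9 markers of oligodendrocyte precursors 8 fell at 5 dpi, and 8 were lower at 12 weeks too. None of 3 listed T and natural killer cell markers or 3 listed B cell markers passed; Cd3d, Cd3e and Cd8a were not listed. The part of these cells in the changes of the 9 genes was not tested.

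**Figure D5:**
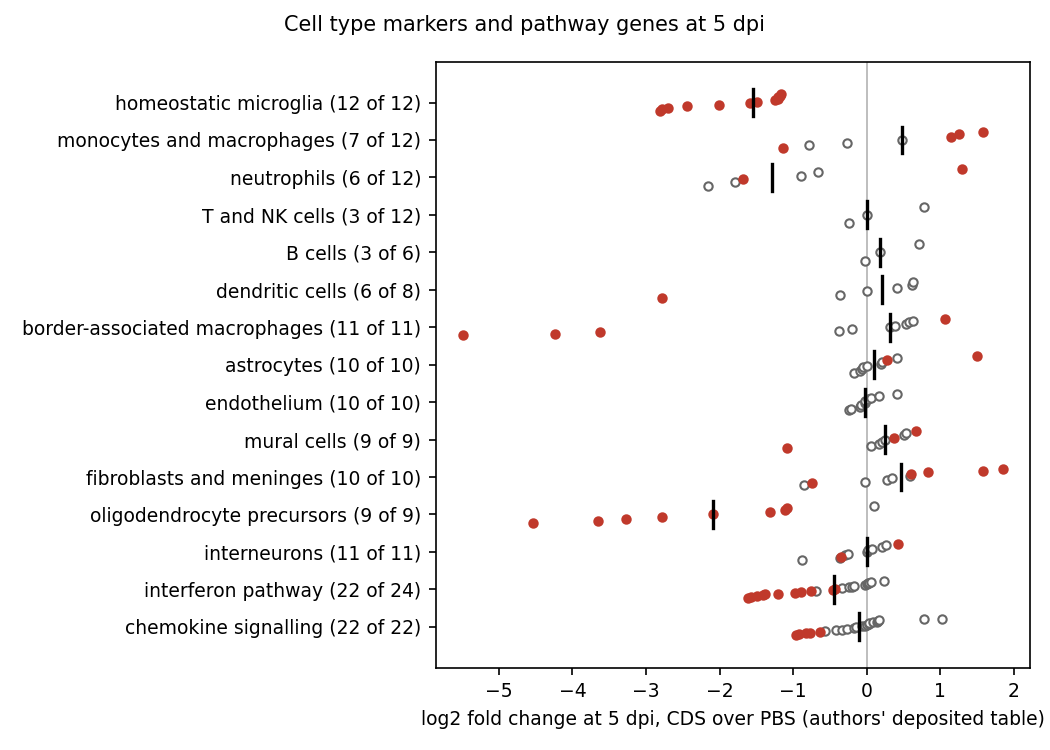
Log2 fold change at 5 dpi of each listed gene of 13 cell type lists and 2 pathway lists, with the number listed of all entries beside each name, red for a q under 0.05, open circles for the rest and a black bar at the median. All 12 genes of resting microglia and 8 of 9 of oligodendrocyte precursors lie to the left of 0, while the monocyte list, which here includes Ccr2, has points on either side.

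Likeness between genes can be measured here over 2 values only, the fold change at each time. Among 1205 genes with a symbol that were called at 5 dpi, those nearest to Cxcl5 by Euclidean distance were Runx3, Sh2d1b1 and Hist1h2an, at distances of 0.98 to 1.35. Those nearest to Cxcl10 were Gm4951, Ifi204 and Gm26671, at 0.37 to 0.84. Those nearest to Ccr2 were Mmp9, Col7a1 and Cep55, at 0.06 to 0.08. Ifi204 stood at -1.95 and then 0.83, and Mmp9 at 1.29 and then 0.29, in the authors' deposited tables.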

How the data were processed

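RNA was extracted from frozen medial prefrontal cortex, and stranded libraries depleted of ribosomal RNA were made from 400 ng each, per the labels' protocols. STAR, featureCounts, DESeq2 and GRCm38.p5 are named in the submitters' processing notes, with no version. The authors deposited 2 tables of their own comparisons, listing 20375 genes, per the file headers with a q-value and a log2 fold change (CDS relative to PBS) for each; columns of per-sample values left unused numbered 0, and depth is unknown. A filter on low genes is not described in the labels.

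Reading the q-values as Benjamini-Hochberg adjusted, each p was taken back from q by its rank among the 20375 (for the 9 genes, ties leave at most 1.003-fold between bounds). The implied SE is the log2 fold change over the z of that p. At 12 weeks p was recovered for 272 genes, for which the implied SE was 0.994 of that at 5 dpi (median). The arithmetic of the recovery was checked on data simulated with the same z and Benjamini-Hochberg steps. Such data cannot show whether the deposited values were made that way, or how large the hidden errors at 12 weeks are. Symbols came from the tables, with 4015 of 4083 blank ones named through their ID, and coordinates from GENCODE M21. Scripts used Python 3.11.15, scipy 1.17.1 and pandas 2.3.3.

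The 9 genes and all lists were chosen with earlier results of these data known. Named were the 9 genes, each family gene past the threshold, up to 4 called genes with the smallest q of a pathway list, family genes of the clusters, list extremes and the 3 nearest genes. Others named (Gfap, Cx3cl1, the atypical receptors, Irf1, Art3, Zmynd15, markers listed but not called) were chosen after their values were seen. Some genes that the rule takes are not reported here.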

Additional observations from a re-analysis of the deposited data

Results flagged for a closer look

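Cxcl5 and Cxcl10 are given here because the CDS effect differed between the times by a z test of the difference, adjusted over all genes. The log2 fold change at 12 weeks minus that at 5 dpi was -2.94 for Cxcl5 (adjusted p = 9.15e-09), from 3.71 to 0.77 in the authors' deposited tables. For Cxcl10 it was 3.19 (adjusted p = 0.0347), from -1.77 to 1.42 in the authors' deposited tables. The errors at 12 weeks are hidden and were assumed, at or near the smallest that the shared q allows. With hidden errors 1.5 times larger, Cxcl10 did not pass the same z test (adjusted p = 0.595). No sample values are at hand to show whether single libraries carry either change.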

How the results depend on the processing

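Of 3 genes past the threshold at 5 dpi, 2 passed at a q under 0.01 (Cxcl5 and Ccr2), and 1 under Bonferroni adjustment (Cxcl5). Under Bonferroni adjustment the count of 8 in the wider family became 4. A q under 0.1, a fold of at least 1.5 and adjustment over protein-coding genes alone gave 3 and 8 again. At 12 weeks the family count rose from 0 to 1 at a q under 0.1 (Ccr1). The 9 genes gave 0 under every threshold tried, which their shared q of 0.999997 fixed beforehand. Of 2 genes that differed between times, 1 (Cxcl5) passed at an adjusted p under 0.01, and 1 (Cxcl5) with hidden errors 1.5 times larger. The 5 dpi error without its lower limit gave 2. The test over genes with a recovered p at each time gave no value, since 0 of the 9 have one. Subtracting the median of all genes (-0.02 at 5 dpi, -0.0022 at 12 weeks) or of protein-coding genes turned no sign of the 9. No paired analysis was possible because values of single samples were not at hand, and leaving out a replicate could not be run either. Precision is set by errors implied at 5 dpi, from 0.095 for Cxcl14 to 0.68 for Ccl3.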
